A study of Mus musculus with 49 samples.

Results

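The rabbit IgG CONTROL embryos were late 2-cell mouse embryos of the same treatment that were processed in 2 batches. They were the 13 embryos, of 49 in the series, whose labels name rabbit IgG and a batch: 7 in batch 1 and 6 in batch 2. All had parents of F1(C57BL/6JxCBA/H) background. As zygotes they received rabbit IgG, were cultured for 4 h, received mCherry-Trim21 mRNA and were lysed singly 48 h after hCG, the hormone that sets the time of ovulation. Rabbit IgG is an antibody without a chosen target, so these embryos carry both injections and the Trim21 ubiquitin ligase of the FOXJ3 loss-of-function (LOF) experiment without the antibody that directs Trim21 to FOXJ3. FOXJ3 LOF embryos of the same batches, 10 in batch 1 and 7 in batch 2, received an antibody against FOXJ3 instead and are used as other embryos split the same way. Embryos of the TBP experiment, whose labels name no batch, serve for gene classes and as a further control set. With the same mCherry-Trim21 mRNA, 9 received an antibody against TBP (TBP LOF) and 10 received mouse IgG, of which 9 passed quality control. The batches were defined by the aliquot of lysis buffer with ERCC spike-ins and by the library preparation, which cannot be told apart. The study drew its embryos from several independent experiments, and the labels do not say which embryo came from which. The embryo numbers only name embryos. Each embryo gave 1 Smart-seq+5′ library, from which reads of transcript 5′ ends were counted for every gene and transposable element (TE) family.

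At the late 2-cell stage an embryo holds 2 pools of RNA. Maternal transcripts, loaded during oocyte growth, are being degraded, and zygotic genome activation (ZGA) has filled the embryo with RNA of its own, including that of TE families such as MERVL. Loss of the first pool and growth of the second overlap in time at this stage. The values below ask which genes and TE families separated the batches, and whether maternal or zygotic genes carried the difference. Log2 differences are batch 2 over batch 1 throughout, with standard errors (SE). Levels are in CPM, reads of a feature relative to all gene and TE reads of the library, scaled by TMM, a method that sets the bulk of features equal between libraries. On this scale fewer RNA molecules of a gene cannot be told apart from more RNA of all others in the embryo. Where values are scaled to ERCC reads this is said, and the batches received their ERCC from different aliquots.

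Libraries held between 1688952 and 2877703 counted reads in batch 1 and between 1302207 and 3257323 in batch 2. The mean number of detected genes was 16831 ± 959 (SD, n = 7) in batch 1 and 15725 ± 1513 (SD, n = 6) in batch 2. Reads of TEs made up 24.3% ± 4.74 (SD) and 22.5% ± 4.35, and ERCC reads 3.74% ± 1.16 and 3.98% ± 1.69. Reads of the injected mCherry-Trim21 mRNA, relative to counted reads and without TMM, ranged from 369 to 1162 CPM in batch 1. In batch 2, embryos 2, 3, 6 and 7 lay above this range, at 3162, 2571, 1545 and 1609 CPM. Batch 2 embryos 1 and 5 lay below it, at 246 and 249 CPM. The SD of the log2 mCherry-Trim21 level was 0.535 in batch 1 and 1.65 in batch 2, and this spread was not tested. None of 6 such measures differed past the threshold in two-sided exact permutation tests, with p between 0.142 and 0.773 and adjusted p between 0.666 and 0.773. Without batch 2 embryo 5, counted reads and detected genes were both lower in batch 2 with an exact permutation p of 0.048 each, before adjustment. All 18 markers looked for in the late 2-cell embryo were detected, among them Zscan4c, Zfp352 and Dppa3. The list holds maternal transcripts such as Dppa3 beside 2-cell genes such as Zscan4c, so its detection alone does not mark the stage.

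Batch 1 embryos 2 and 3 stood apart from the other 11 embryos. Spearman's correlation of the levels of all tested features lay between 0.717 and 0.827 for pairs of 1 of them with any other embryo, and was 0.855 between the pair. Among the other 11 embryos it lay between 0.826 and 0.891, with medians of 0.867 within batch 1, 0.862 within batch 2 and 0.865 between the batches. Embryos of different batches were thus about as alike as embryos of the same batch. The median SD of a feature on the log2 scale was 0.758 in batch 1 and 0.621 in batch 2, and 0.594 in batch 1 without the 2 embryos. Results are therefore given with and without batch 1 embryos 2 and 3, a choice made after their values were seen.

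**Figure D1:**
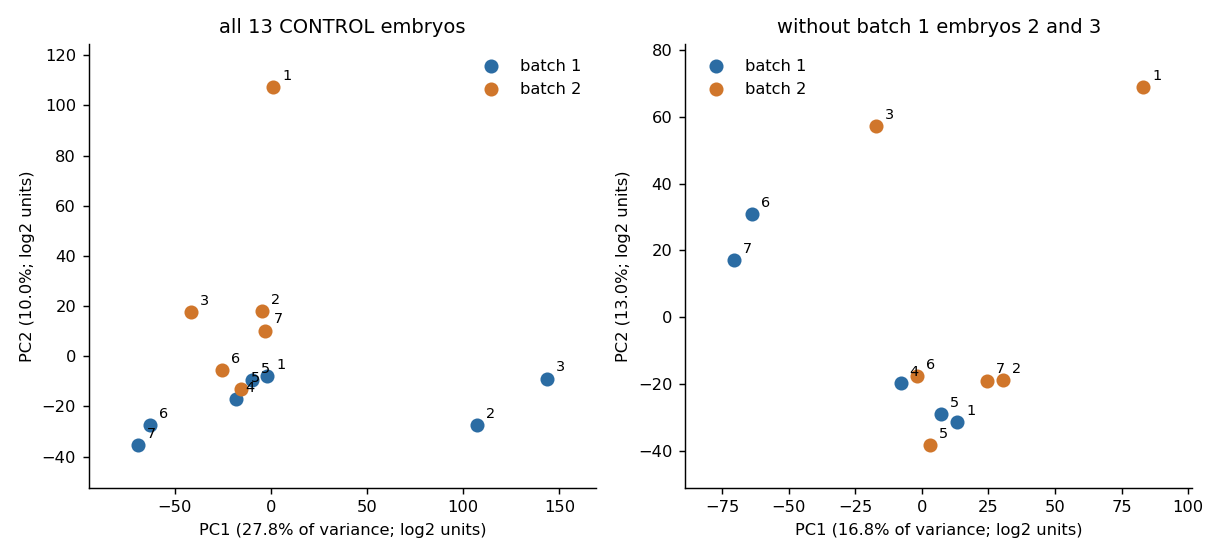
Principal components of log2 levels in the rabbit IgG CONTROL embryos, with 1 point for each embryo, its number beside it and its batch in colour. With all 13 embryos (left), PC1 holds 27.8% of the variance and places batch 1 embryos 2 and 3 at 107 and 144, with all others between -69.1 and 1.2. Without them (right), the batches overlap on both axes.

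With all 13 embryos, 19593 features were tested, 18708 genes and 885 TE families, and 0 passed the threshold (0% of features; edgeR's quasi-likelihood test, Benjamini-Hochberg adjusted p under 0.05). At an unadjusted p under 0.05, 322 features were higher in batch 2 (1.64%) and 825 were lower (4.21%), 1147 in all. DESeq2 called 16. The batches did not overlap for 19 features that were higher in batch 2 (0.097% of those tested) and for 16 that were lower (0.0817%). Without batch 1 embryos 2 and 3, 5 of 19994 features passed the threshold (0.025%), of which 3 were higher and 2 lower in batch 2, and at an unadjusted p under 0.05 there were 694 higher (3.47%) and 878 lower (4.39%).

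Of the 825 features that were lower in batch 2 at an unadjusted p under 0.05, 274 had their 2 highest levels in batch 1 embryos 2 and 3, against 1956 of all 19593 features. Of the 747 that were tested again without these embryos, 728 kept their sign and 383 an unadjusted p under 0.05. The rest of the 825 had reads in under 25% of the remaining embryos, so they had passed the filter only with embryos 2 and 3. Of the 322 higher ones, 321 were tested again, 321 kept their sign and 214 an unadjusted p under 0.05. Of the 322 higher features, 52 had their 2 lowest levels in embryos 2 and 3, against 2030 of all 19593. Both sets were chosen by their difference in these same embryos, which by itself places extremes in batch 1. The counts over all features are therefore not a like baseline. The fit without embryos 2 and 3 reuses 11 of the 13 embryos, so the kept signs and p are a description and not support.

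The gene with the smallest p was Rpia (chr6:70765720-70792232, GRCm38), the isomerase that makes ribose 5-phosphate in the pentose phosphate pathway. Its lowest, median and highest levels were 3.48, 8.28 and 9.99 CPM in batch 1, and 18.1, 27.0 and 51.0 CPM in batch 2. All 6 embryos of batch 2 lay above all 7 of batch 1. The log2 difference was 2.24 ± 0.38, with an edgeR adjusted p of 0.0713 with all embryos and 0.0226 without embryos 2 and 3, and a range over 24 alternatives from 3.83e-05 to 0.574.

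Khdc1a (chr1:21349641-21352200), a member of a KH-domain family of the oocyte and early embryo, came next. Levels were 49.4, 74.9 and 146 CPM (lowest, median, highest) in batch 1 and 138, 228 and 313 CPM in batch 2, so that 5 of 6 batch 2 embryos lay above all of batch 1. The highest level of batch 1 was that of embryo 3. The log2 difference was 1.51 ± 0.29 (edgeR adjusted p = 0.177), and 1.74 ± 0.24 without embryos 2 and 3, where Khdc1a had the smallest adjusted p of all features (0.000632, with 8.02e-09 to 0.613 over the alternatives). Khdc1a has close copies in the genome, between which the counting could have divided reads.

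Pag1 (chr3:9687479-9833679), an adaptor protein of the membrane that recruits the kinase Csk, had levels of 0.999, 5.10 and 12.4 CPM in batch 1 and 13.6, 22.9 and 42.5 CPM in batch 2, without overlap. Its log2 difference was 2.09 ± 0.45 (edgeR adjusted p = 0.327), and 2.40 ± 0.45 without embryos 2 and 3 (adjusted p = 0.0318, with 0.000318 to 0.747 over the alternatives). Nf1 (chr11:79339693-79581612), which holds Ras in check, did not overlap either, with 5.18, 7.71 and 10.8 CPM against 14.8, 23.4 and 33.4 CPM. The log2 difference of Nf1 was 1.48 ± 0.35 (edgeR adjusted p = 0.477). Vmn2r1, a vomeronasal receptor gene, completed the 5 higher genes with the smallest p, but on 1 read in all of batch 1 and 24 reads in batch 2. The ratio of its reads, scaled to the counted reads of each batch, was 32.4, with an exact 95% interval of 5.28 to 1333 for counting error only.

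The other genes that passed without embryos 2 and 3 were lower in batch 2. Cdk11b (chr4:155624854-155649938), a kinase of transcription and splicing, had levels of 57.2, 151 and 294 CPM in batch 1 and 61.9, 71.0 and 102 CPM in batch 2. Its 2 lowest levels in batch 1 were those of embryos 2 and 3, at 69.2 and 57.2 CPM, and the other 5 embryos, from 142 CPM, all lay above batch 2. Its log2 difference was -0.96 ± 0.33 (edgeR adjusted p = 0.672), and -1.27 ± 0.23 without embryos 2 and 3 (adjusted p = 0.0318, with 0.000723 to 1.00 over the alternatives). Fkbpl (chr17:34644764-34646324), an FK506-binding protein-like co-chaperone, had 14.9, 52.6 and 105 CPM against 8.0, 17.2 and 34.8 CPM, and embryos 2 and 3 again lay lowest in batch 1, at 14.9 and 19.3 CPM. Its log2 difference was -1.44 ± 0.44 (edgeR adjusted p = 0.614), and -1.79 ± 0.34 without them (adjusted p = 0.0318, with 0.0069 to 0.789 over the alternatives).

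Promoter sequences were found for 3 of these 5 genes in the RefSeq table for GRCm38.p6, and they are shown because 5′ ends are what was counted and these genes differed between the batches in either direction. Each holds 250 bases before and 50 after the RefSeq gene start, 5′ to 3′ on the gene's strand. For Rpia and Fkbpl this start differs from that of the gencode span given above. Capitals mark matches on either strand to the motifs searched, which were TATAAA, the core of a TATA box, CCAAT, the core of a CCAAT box, and CCGGAAG, the core bound by ETS factors. No motif searched overlaps another.
Rpia, chr6:70792126-70792425, minus strand: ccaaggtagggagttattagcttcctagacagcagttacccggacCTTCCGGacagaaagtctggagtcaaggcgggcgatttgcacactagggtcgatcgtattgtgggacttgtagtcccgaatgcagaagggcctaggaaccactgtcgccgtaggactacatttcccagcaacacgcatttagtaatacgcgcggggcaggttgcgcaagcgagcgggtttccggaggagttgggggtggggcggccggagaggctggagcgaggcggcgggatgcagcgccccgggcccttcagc
Cdk11b, chr4:155624604-155624903, plus strand: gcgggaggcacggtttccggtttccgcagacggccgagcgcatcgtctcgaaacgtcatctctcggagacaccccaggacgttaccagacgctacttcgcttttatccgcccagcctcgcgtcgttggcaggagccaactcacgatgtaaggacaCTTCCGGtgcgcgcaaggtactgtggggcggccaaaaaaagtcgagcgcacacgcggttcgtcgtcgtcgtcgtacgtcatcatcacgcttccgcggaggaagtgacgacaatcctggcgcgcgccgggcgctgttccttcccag
Fkbpl, chr17:34644564-34644863, plus strand: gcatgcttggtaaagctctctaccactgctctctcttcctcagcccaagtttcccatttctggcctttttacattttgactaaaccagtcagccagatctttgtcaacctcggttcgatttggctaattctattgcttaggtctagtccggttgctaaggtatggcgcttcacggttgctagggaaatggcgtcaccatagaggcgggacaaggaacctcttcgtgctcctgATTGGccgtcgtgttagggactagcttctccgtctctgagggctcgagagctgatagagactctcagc

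Rpia and Cdk11b, which differed in opposite directions, each held 1 CCGGAAG match, as did 8.86% of 32851 promoters of the same length. The Fkbpl promoter held 1 CCAAT match, as did 37.4% of promoters, and none of the 3 held TATAAA, which 13.6% did. CpG dinucleotides numbered 24 in Rpia, 42 in Cdk11b and 12 in Fkbpl, against a median of 7, and GC content was 60.7%, 62.3% and 50.7%, against a median of 52.7%. A match is a description of the letters and not of a bound site.

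The 5 lower genes with the smallest p were of another kind: most of their reads came from some of the batch 1 embryos and few from any in batch 2. Ccnd1, the G1 cyclin D1, had 0.432, 7.71 and 40.7 CPM in batch 1 and 0, 0.211 and 1.01 CPM in batch 2 (log2 difference -4.77 ± 0.94, edgeR adjusted p = 0.177). Nefl and Nefm, the light and medium neurofilament subunits, had medians of 13.4 and 10.8 CPM in batch 1 and of 0 and 0 CPM in batch 2, where 4 of 6 embryos had no read of either (log2 difference -4.95 ± 0.99 and -4.73 ± 1.00). The annotated spans of Nefl and Nefm overlap on opposite strands, and without strand their reads cannot be told apart, so that they may count as 1 observation. Bex2, an X-linked gene of the brain-expressed family, had 0, 6.90 and 61.7 CPM against 0, 0.252 and 1.77 CPM, and Tagln2, the actin-binding transgelin-2, 0, 8.92 and 38.3 CPM against 0, 0.855 and 2.36 CPM. Embryos 2 and 3 were the highest of batch 1 for Ccnd1, Nefm, Bex2 and Tagln2. Without them the log2 differences were -3.57 for Ccnd1, -4.41 for Nefl, -4.04 for Nefm, -2.93 for Bex2 and -2.74 for Tagln2, with edgeR adjusted p between 0.141 and 0.497, and between 0.000128 and 0.821 over all alternatives.

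**Figure D2:**
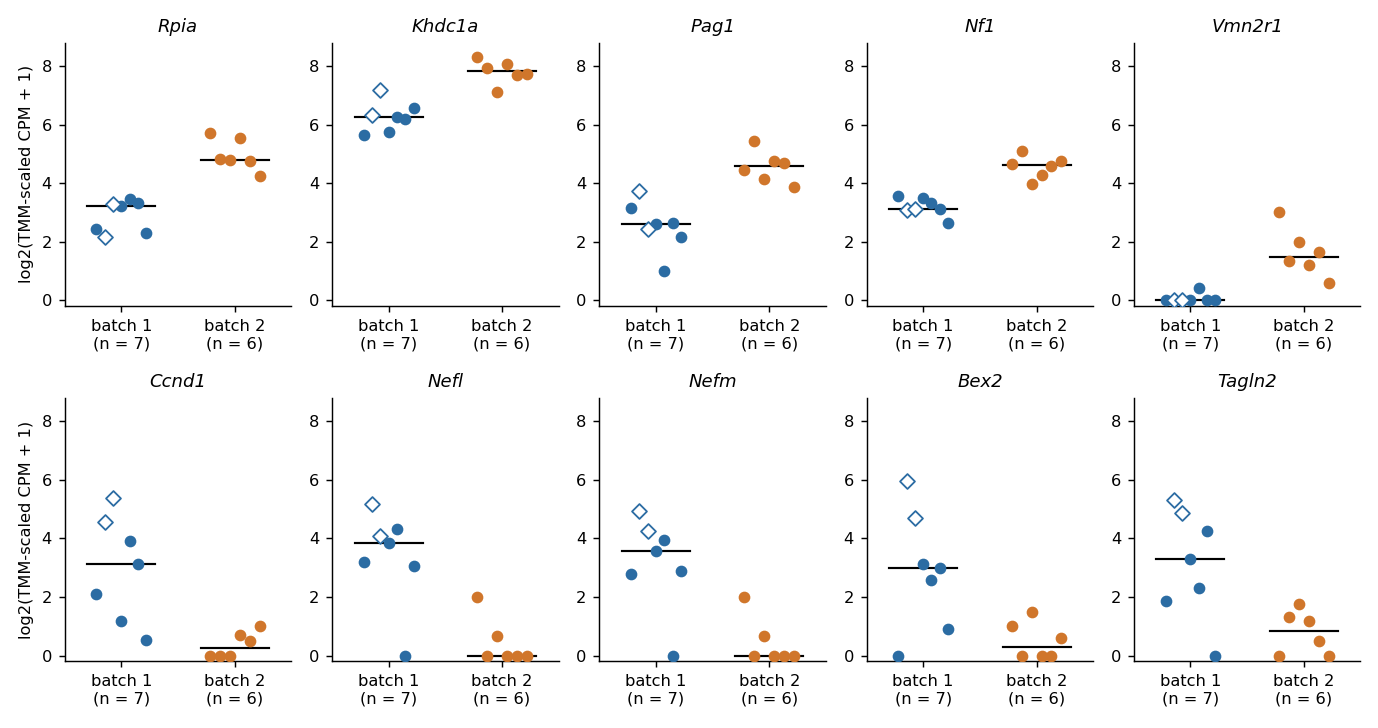
Levels of the 5 higher genes (top) and 5 lower genes (bottom) with the smallest p, as log2(TMM-scaled CPM + 1), with 1 point for each embryo. Open diamonds are batch 1 embryos 2 and 3, and black lines are medians. Rpia, Pag1 and Nf1 do not overlap between the batches, whereas the lower genes spread widely within batch 1. Vmn2r1 does not overlap on this scale, but batch 1 embryo 5 and batch 2 embryo 7 each had 1 read of it.

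Some other genes outside the 5 in each direction did not overlap and are named after their values were seen. The lincRNA 4930562F17Rik had 0, 2.33 and 10.8 CPM in batch 1 and 15.9, 20.6 and 25.8 CPM in batch 2 (log2 difference 2.32 ± 0.56, edgeR adjusted p = 0.477). Pnn, a splicing-associated protein of nuclear speckles, had 107, 150 and 188 CPM against 60.0, 77.2 and 104 CPM (log2 difference -0.84 ± 0.26, adjusted p = 0.614). Malat1, a lincRNA of nuclear speckles, overlapped between the batches in 1 batch 1 embryo, with 37.0, 65.2 and 87.0 CPM against 6.00, 19.7 and 44.8 CPM (log2 difference -1.49 ± 0.37, adjusted p = 0.477).

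Among TE families the differences leaned to batch 1. Of the 885 families tested, 209 had a log2 difference above 0, the median was -0.33, and at an unadjusted p under 0.05 there were 5 higher and 53 lower in batch 2, against 1.64% and 4.21% of all features. The median over all genes was -0.08. Over features of any kind, those with a mean under 1 CPM had a median of -0.35 and those between 10 and 100 CPM one of -0.01, and the part of the level in the lean of the TE families was not tested. Without embryos 2 and 3 the median over TE families was -0.21, with 17 higher and 50 lower of 899, against 3.47% and 4.39% of all features.

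The SINE families, short elements that carry no protein, showed the lean as a group. All 16 SINE B1 families, all 5 SINE B2 families and all 12 of the B4, ID and MIR types had negative log2 differences, with medians of -0.26, -1.06 and -0.41. At an unadjusted p under 0.05 (edgeR), 0, 3 and 2 of them were lower and 0 higher, against 4.21% and 1.64% of all features. The summed level of SINE B2 was 26354, 60578 and 181321 CPM (lowest, median, highest) in batch 1 and 25607, 33065 and 58860 CPM in batch 2. Batch 1 embryos 2 and 3 held 118274 and 181321 CPM of this, and the other 5 embryos of batch 1 between 26354 and 73217 CPM, so that without the 2 embryos the SINE B2 median was -0.39. B2_Mm2 had the smallest p of the SINE families, with 3245, 7184 and 24344 CPM against 3145, 3894 and 6280 CPM and a log2 difference of -1.26 ± 0.39 (edgeR adjusted p = 0.614), or -0.58 ± 0.26 without embryos 2 and 3. B1_Mm was 1 of the 2 TE families that did not overlap, both lower in batch 2 (of 885, against 0.0817% of all features), with 1262, 1444 and 1663 CPM against 1056, 1122 and 1183 CPM, a difference of -0.37 ± 0.23 on the log2 scale (adjusted p = 0.946). B2_Mm1a and B3A had log2 differences of -1.06 ± 0.42 and -0.30 ± 0.25, which became -0.35 and -0.28 without embryos 2 and 3.

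MTA_Mm, a MaLR family whose RNA is abundant in oocytes, was the most abundant family on the higher side. Its levels were 24582, 45129 and 60707 CPM in batch 1 and 42873, 65602 and 125281 CPM in batch 2, and 4 of 6 batch 2 embryos lay above all of batch 1 (log2 difference 0.80 ± 0.34, edgeR adjusted p = 0.747). Embryos 2 and 3 were the highest of batch 1, at 48233 and 60707 CPM, and without them the log2 difference was 0.99 ± 0.30. The median over the 15 MT families was of the other sign, at -0.27 with all embryos, and 0.16 without embryos 2 and 3. MTB_Mm, also known from oocytes, had a log2 difference of -0.27 ± 0.35, which became 0.41 ± 0.22 without them. The remaining higher families were MER57C2 (0.92 ± 0.37) and MER89 (0.75 ± 0.31), both ERV1 LTRs, and MER31-int and X7B_LINE on 11 and 12 reads in batch 2 and 0 and 2 reads in batch 1. With its 11 reads taken as exact, over the 3 reads that a count of 0 allows, MER31-int was at least 4.95-fold higher in batch 2 after scaling to the counted reads. The ratio for X7B_LINE was 8.10 with an exact 95% interval of 1.80 to 74.5. Batch 2 embryo 6 gave 7 of the 12 reads of X7B_LINE, and without it the fitted log2 difference went from 2.49 to 1.65.

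Apart from B2_Mm2, the lower families with the smallest p were a satellite and LTR families. ZP3AR, a satellite, had 27.0, 44.6 and 124 CPM against 8.27, 21.8 and 39.6 CPM (log2 difference -1.34 ± 0.40, edgeR adjusted p = 0.614). RLTR19, an ERVK LTR, had 18.9, 33.0 and 49.3 CPM against 11, 17.0 and 20.5 CPM (log2 difference -1.04 ± 0.31, adjusted p = 0.614), and 6 of 7 batch 1 embryos lay above all of batch 2. Both differences stood at -1.31 and -1.01 without embryos 2 and 3. MER77B had 72 reads in batch 1 and 9 in batch 2 (log2 difference -2.54 ± 0.83), and ERVB2_1-I_MM-int 39 and 3 reads, a ratio of 9.63 with an exact 95% interval of 3.06 to 48.7. Batch 1 embryo 2 gave 25 of the 39 reads, and without it the fitted log2 difference of ERVB2_1-I_MM-int went from -3.25 to -2.03.

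Of the families that ZGA switches on, MERVL-int had 5536, 8607 and 13419 CPM in batch 1 and 7357, 12017 and 17047 CPM in batch 2 (log2 difference 0.47 ± 0.30, edgeR adjusted p = 0.953). MT2_Mm, the LTR of MERVL, leaned the other way with -0.39 ± 0.33, and embryos 2 and 3 held its highest levels, 31070 and 46238 CPM. Without them its log2 difference was -0.07. ORR1A0 and ORR1A1, MaLR families activated at ZGA, had log2 differences of -0.13 ± 0.27 and -0.28 ± 0.26, and L1MdTf_II, a young LINE-1 family, -1.33 ± 0.60 on levels of 7.05 to 184 CPM in batch 1 and 7.09 to 35.4 CPM in batch 2. Batch 1 embryo 6 held the 184 CPM of L1MdTf_II, and without it the log2 difference was -0.43. None of these families passed the threshold.

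The maternal side was read from 80 tested oocyte transcripts, such as those of the zona pellucida and of the Oog, Obox and Fbxw families. With all 13 embryos, 0 were higher and 1 was lower at an unadjusted p under 0.05, against 1.64% and 4.21% of all features, 29 of 80 had a log2 difference above 0, against 8295 of 18708 genes, and the median was -0.17. Without batch 1 embryos 2 and 3, 12 were higher and 1 lower, against 3.47% and 4.39% of all features, 66 of 80 were above 0, against 9207 of 19095 genes, and the median was 0.34. The sign of the maternal list therefore turned on these 2 embryos. Its summed level was 38859 CPM in embryo 2 and 51242 CPM in embryo 3, between 17322 and 34749 CPM in the other batch 1 embryos and between 24169 and 39582 CPM in batch 2.

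Fbxw24, an F-box gene of the oocyte, had the smallest p of the oocyte transcripts above 0, with 116, 130 and 189 CPM against 154, 189 and 270 CPM and a log2 difference of 0.51 ± 0.25 (edgeR adjusted p = 0.86). Dazl, an RNA-binding protein of germ cells, was the 1 lower gene, with 9.56, 36.7 and 130 CPM against 13.2, 19.9 and 25.1 CPM. The 2 highest levels of Dazl were those of embryos 2 and 3, 82.1 and 130 CPM, and its log2 difference went from -1.35 ± 0.48 to -0.43 ± 0.38 without them.

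The subcortical maternal complex, the oocyte-derived protein assembly beneath the egg surface that early cleavage needs, also depended on embryos 2 and 3. Its 8 genes had a median log2 difference of 0.04 with all embryos, where 0 had an unadjusted p under 0.05, and of 0.74 without embryos 2 and 3, where 4 of 8 were higher at an unadjusted p under 0.05, against 3.47% of all features. Zbed3 had 431, 985 and 7182 CPM in batch 1 and 1207, 1605 and 3143 CPM in batch 2. Embryos 2 and 3 held 2963 and 7182 CPM of Zbed3, and the other batch 1 embryos at most 1617 CPM. The summed level of the 8 genes was 3367 and 7952 CPM in these 2 embryos, so that most of it was Zbed3. Nlrp4f, Nlrp2, Khdc3 and Tle6 also had their highest batch 1 levels there, and Padi6, at 69.2 and 59.4 CPM, did not. The log2 difference of Zbed3, -0.19 ± 0.49, became 1.03 ± 0.29 without the 2 embryos, that of Nlrp4f went from -0.18 ± 0.48 to 0.91 ± 0.29, and that of Nlrp2 from 0.60 ± 0.46 to 1.29 ± 0.44. None of the 3 passed the threshold in either fit. Genes of maternal mRNA decay, such as Btg4 and the CCR4-NOT subunits, had a median of -0.09 over 26 genes, and 0.02 without embryos 2 and 3, with 0 and 1 at an unadjusted p under 0.05, against 5.85% and 7.86% of all features in either direction.

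The zygotic side was read in 2 ways. Of 70 tested 2-cell genes, those with a burst of expression at the 2-cell stage, 1 was higher and 9 were lower in batch 2 at an unadjusted p under 0.05, against 1.64% and 4.21% of all features, with a median of -0.22. Zscan4d, of a family that marks the 2-cell state, had 5.62, 17.8 and 131 CPM against 7.59, 11 and 27.3 CPM, with its highest levels in embryos 2 and 3. Its log2 difference was -1.39 ± 0.56, and -0.29 ± 0.44 without them. Pramef6 went in the same way from -1.92 to -0.98, Zscan4f from -1.45 to -0.10, Eif4e3 from -0.72 to -0.08 and Zfp352 from -0.41 to 0.07. Without the 2 embryos, 3 of the 70 genes were higher and 0 lower at an unadjusted p under 0.05, against 3.47% and 4.39% of all features, and the median was -0.03. Zscan4 genes are near-identical copies, so that reads may be divided among them.

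Broader classes came from the TBP experiment, which shares no embryo with this comparison. TBP is the TATA-binding protein of the transcription machinery, and genes whose RNA was lower in TBP LOF embryos than in mouse IgG CONTROL embryos (edgeR with ERCC size factors) were taken as a proxy, not a measure, of transcription in the embryo. Of 19356 features, 5758 were lower there (29.7%) and 259 higher (1.34%). The paper reports that some well-known markers of ZGA were not affected by the loss of TBP. Genes that were not called can therefore include zygotic ones, and these classes do not divide zygotic from maternal RNA. The 5426 lower genes that were tested here had a median batch difference of 0.06 on the log2 scale, with 118 higher and 102 lower at an unadjusted p under 0.05. The 11677 genes that were not called had a median of -0.16, with 162 higher and 527 lower, and the 219 genes higher in TBP LOF had a median of -0.41, with 2 and 22. With each embryo left out in turn, the medians of the lower, not called and higher genes were -0.07 to 0.15, -0.21 to -0.06 and -0.58 to -0.22. Without embryos 2 and 3 all 3 medians changed sign, to -0.16, 0.07 and 0.17, with 85 higher and 410 lower in the first class, 476 and 305 in the second, and 16 and 10 in the third. Over all features the shares higher and lower were 1.64% and 4.21% with all embryos and 3.47% and 4.39% without the 2. The medians over all genes tested were -0.08 and -0.03. The summed level of the genes lower in TBP LOF was 190836 and 144560 CPM in embryos 2 and 3, between 298189 and 424438 CPM in the other batch 1 embryos, and between 284944 and 365542 CPM in batch 2.

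**Figure D3:**
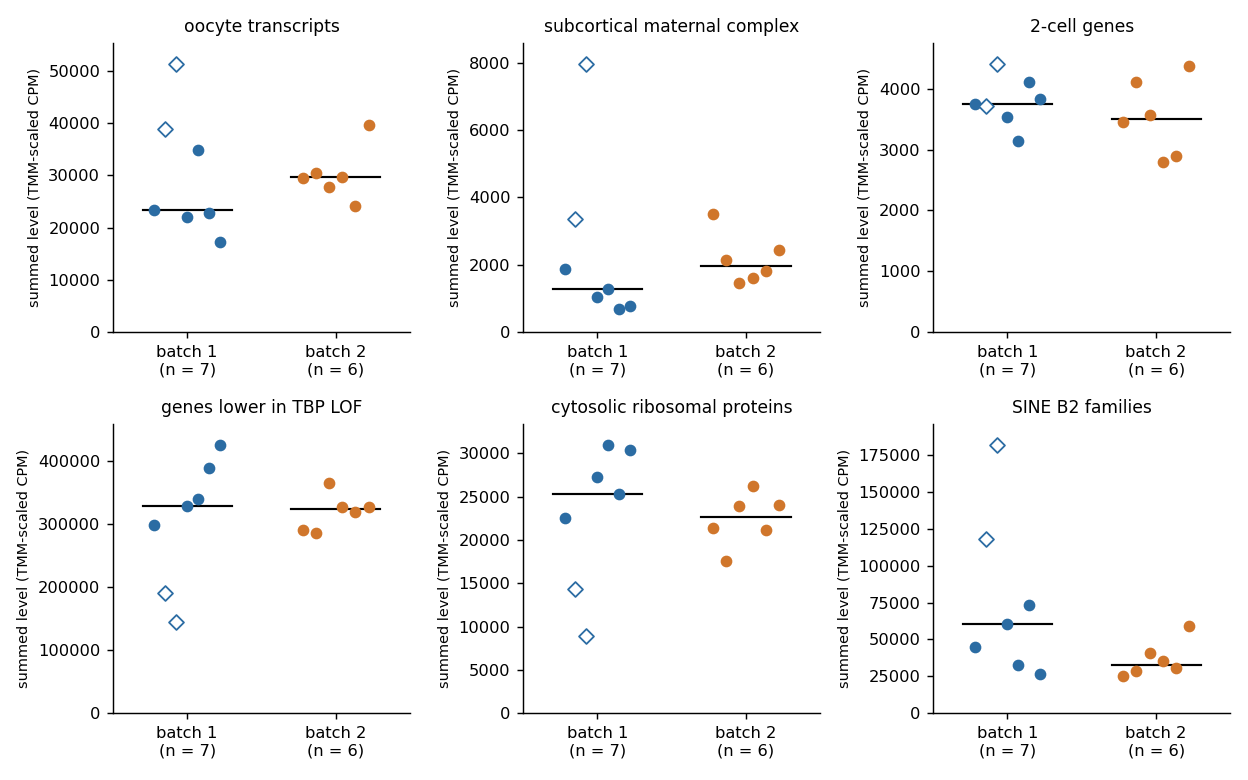
Summed levels of 6 lists in each embryo, in TMM-scaled CPM on axes that start at 0. Open diamonds are batch 1 embryos 2 and 3, and black lines are medians. The 2 embryos lie highest in batch 1 for oocyte transcripts, the subcortical maternal complex and SINE B2 families, and lowest for genes lower in TBP LOF and for ribosomal proteins. The summed level of the subcortical maternal complex is mostly Zbed3.

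On the TMM scale, embryos 2 and 3 held more of both maternal lists and of SINE B2 RNA, and less RNA of the genes lower in TBP LOF, than the other 5 embryos. For oocyte transcripts this did not hold for embryo 2 on other scales: it had 850 reads per 1000 ERCC reads, and the other 5 between 380 and 974, and without TMM it had 37564 CPM, and the other 5 up to 40238 CPM. The other lists of the sentence kept their order on both scales. For the subcortical maternal complex the summed level is mostly Zbed3, as given above. Batch 2 lay on the same side of those 5 embryos as embryos 2 and 3 did, with medians of 0.34 for oocyte transcripts, 0.74 for the subcortical maternal complex and -0.16 for genes lower in TBP LOF, whereas SINE B2, at -0.39, lay on the other side and the 2-cell genes, at -0.03, near 0. These are descriptions of lists, and none of their members passed the threshold with all embryos. The 5 genes that passed without embryos 2 and 3 were of different classes: Cdk11b and Fkbpl were lower in TBP LOF, as was Pag1 (log2 difference -1.62 ± 0.45 between TBP LOF and mouse IgG CONTROL, edgeR adjusted p = 0.00362), and Rpia and Khdc1a were not called.

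Ribosomal protein genes had a median opposite in sign to that of oocyte transcripts without embryos 2 and 3, but not with all embryos. The 83 cytosolic ribosomal protein genes had a median of -0.05 with all embryos, where 3 were lower and 0 higher at an unadjusted p under 0.05, against 4.21% and 1.64% of all features. The median was -0.36 without embryos 2 and 3, where 24 were lower and 0 higher at an unadjusted p under 0.05, against 4.39% and 3.47% of all features. Their summed level was 14386 and 8945 CPM in embryos 2 and 3, between 22523 and 30932 CPM in the rest of batch 1 and between 17606 and 26186 CPM in batch 2. Rpl39 had 140, 226 and 475 CPM against 95.7, 170 and 231 CPM (log2 difference -0.67 ± 0.31, edgeR adjusted p = 0.788, and -0.90 ± 0.25 without embryos 2 and 3). Ribosomal protein genes have many processed copies in the genome, which makes single values uncertain. The 52 genes of the nucleolus and ribosome biogenesis went from 0.09 to -0.22, and the 50 proteasome genes from 0.19 to -0.03.

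Of 22 heat shock and chaperone genes, 24 p53 targets and apoptosis genes, 36 cell cycle genes and 21 pluripotency and lineage factors, 0, 0, 2 and 1 had an unadjusted p under 0.05, against 5.85% of all features, with medians between -0.19 and -0.09. Without embryos 2 and 3 there were 3, 2, 3 and 3, against 7.86% of all features. Among 24 immediate early and integrated stress genes, 1 was higher and 5 were lower, which is 25% against 5.85% of all features, and without embryos 2 and 3 it was 1 and 2 of 23. Atf4, the effector of the integrated stress response, had 146, 222 and 339 CPM against 119, 138 and 200 CPM (log2 difference -0.65 ± 0.26, edgeR adjusted p = 0.71). Of the mitochondrial rRNAs, mt-Rnr1 was the lower, with -1.10 ± 0.35, and mt-Rnr2 had 0.54 ± 0.36, and neither passed the threshold. Foxj3, the target of the LOF experiment, had a log2 difference of 0.41 ± 0.25 and Tbp one of 0.33 ± 0.33, which was 0.14 without batch 2 embryo 3, 0.17 without batch 1 embryo 3 and 0.19 without batch 1 embryo 2. Letm1 and Ino80b, other genes of interest to the study, had -0.18 ± 0.41 and 0.41 ± 0.40, and Ino80b had 0.24 without batch 1 embryo 3 and 0.62 without batch 1 embryo 7.

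The summed level of 8 Y-linked genes was 0, 0.55 and 90.6 CPM (lowest, median, highest) in batch 1 and 0, 63.9 and 75.5 CPM in batch 2. It was between 61.9 and 90.6 CPM in 2 of 7 embryos of batch 1 and in 5 of 6 embryos of batch 2, and at most 1.30 CPM in the others. Read from this RNA, embryo sex was thus not balanced between the batches. Batch 1 embryos 2 and 3 were among the low ones, at 0.498 and 0.550 CPM, so fits without them also changed this balance. Of the 7 Y-linked genes tested, 0 had an unadjusted p under 0.05 between the batches. Such genes are near absent in some embryos of each batch, which widens the spread, so this test cannot show that the batches were alike. Xist, the RNA of the inactive X chromosome, had 0, 11.4 and 26.3 CPM in batch 1, and 4 of 6 batch 2 embryos had no Xist read (log2 difference -2.04 ± 0.95, edgeR adjusted p = 0.825). Batch 2 embryo 7 held most of the Xist reads of its batch, and without it the log2 difference was -4.82. Tsix, its antisense partner, whose reads cannot be told from those of Xist without strand, had -2.87 ± 0.84. The part of this in the values of the X-linked genes Bex2, Rpl39 and Rpl36a was not tested.

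Markers of other cells were detected in part in both batches. Of 20 markers of cumulus and granulosa cells 6 had no read in any of the 13 embryos, among them Fshr, Amh and Inha, and 11 had at most 10 reads. Their summed level lay between 47.1 and 85.3 CPM in batch 1 and between 39.0 and 71.0 CPM in batch 2. Krt18, a keratin in that list, had 0, 5.50 and 32.9 CPM against 0, 1.56 and 4.00 CPM (log2 difference -2.55 ± 0.89, edgeR adjusted p = 0.683), with its highest level in embryo 2, without which the log2 difference of Krt18 was -1.65. Sperm markers summed to between 42.8 and 154 CPM and between 41.3 and 94.1 CPM, blood and macrophage markers to between 9.07 and 43.3 CPM and between 7.05 and 36.1 CPM. Batch 1 embryos 2 and 3 had sperm markers at 98.6 and 154 CPM, above all other embryos. They had cumulus and granulosa markers at 70.7 and 85.3 CPM and blood and macrophage markers at 43.3 and 17.6 CPM. Of 15 sperm markers 4 had no read, and of 11 blood and macrophage markers 3, namely Ptprc, Hbb-bs and Hbb-bt. Reads in all 13 embryos were found for the cumulus and granulosa markers Amhr2 (at most 36 CPM) and Serpine2 (46.8 CPM), the sperm markers Odf2 (141 CPM) and Ldhc (21.3 CPM) and the blood markers Hba-a1 (32.5 CPM) and Csf1r (7.09 CPM). Oviduct markers summed to between 50.1 and 325 CPM and between 217 and 453 CPM, chiefly from Epcam, which embryos express themselves.

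**Figure D4:**
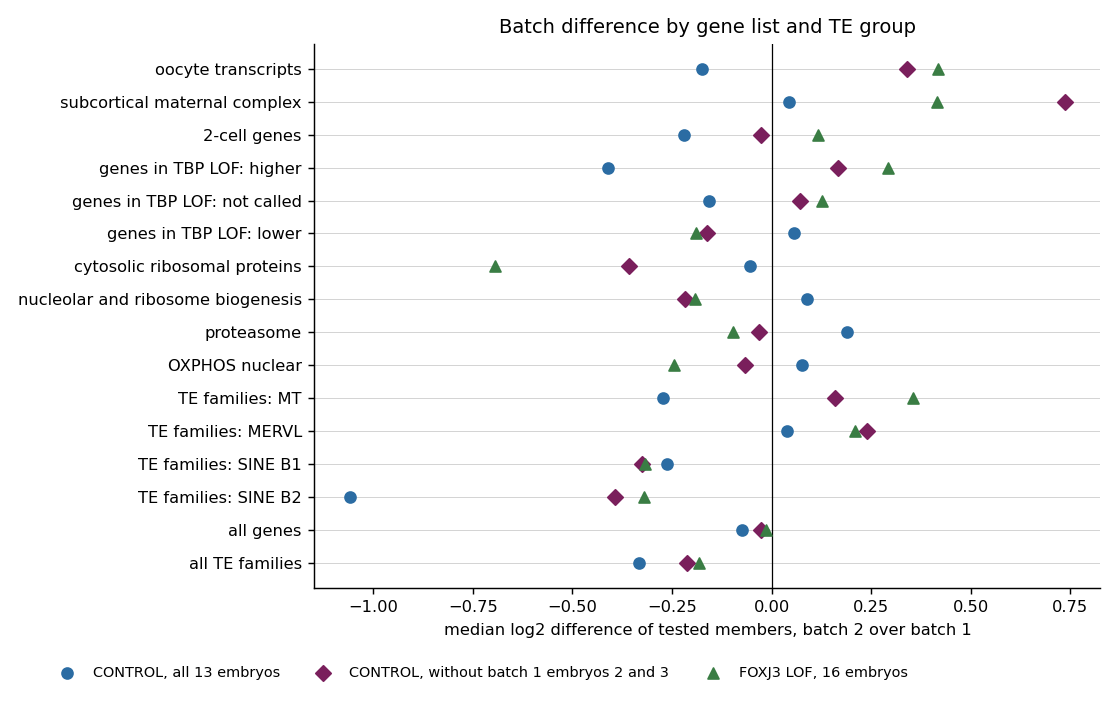
Median log2 difference between the batches over the tested members of 14 gene lists, classes and TE groups and over all genes and all TE families, in 3 sets of embryos. Leaving out batch 1 embryos 2 and 3 (diamonds) moves oocyte transcripts from -0.17 to 0.34 and genes lower in TBP LOF from 0.06 to -0.16, on the side where the FOXJ3 LOF embryos (triangles) lie.

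The FOXJ3 LOF embryos were split by the same 2 batches and have no embryo in common with the CONTROL comparison, though they share its buffer aliquots and library preparations. In the 16 that passed quality control, 297 of 20161 features differed between the batches, 131 higher (0.65%) and 166 lower in batch 2 (0.823%; edgeR adjusted p under 0.05). With ERCC size factors there were 46, of which 9 were higher and 37 lower, and without LOF batch 2 embryo 2 there were 116. The 297 were 130 higher and 160 lower genes and 1 higher and 6 lower TE families. Of the 297, 211 had the same sign in the CONTROL embryos (71.0%, against 52.8% of all features tested in both), and 39 had an unadjusted p under 0.05 there (13.1%, against 5.45% of all features), 36 of them with the same sign. Without embryos 2 and 3, 283 of 297 had the same sign (95.3%, against 63.1% of all features), and 121 an unadjusted p under 0.05 with it, as had 1107 of 18492 features in all. As a description across features, which share libraries, Spearman's rho of the 297 log2 differences was 0.49 with all CONTROL embryos and 0.78 without the 2, and over all features tested in both it was 0.085 and 0.28. The genes called in LOF had higher levels than most, with medians of 42.5 CPM (higher) and 77.3 CPM (lower), against 5.14 CPM over all genes tested. The part of level in these shares and correlations was not tested.

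Among the 297 were Khdc1a and Rpia, from the 5 higher genes with the smallest p in CONTROL. Cdk11b, Pnn and 4930562F17Rik were among them too, but lay outside the 5 on either side and were named after their values were seen. The LOF values of Nf1 and Vmn2r1 are not given here. Khdc1a had the smallest adjusted p of the LOF comparison, with medians of 62.5 CPM in batch 1 and 191 CPM in batch 2 and a log2 difference of 1.73 ± 0.18 (edgeR adjusted p = 8.53e-07). Rpia was higher by 1.19 ± 0.28 (adjusted p = 0.0218), and 4930562F17Rik by 1.42 ± 0.31 (adjusted p = 0.016). Cdk11b was lower, with -1.03 ± 0.22 (adjusted p = 0.0154), as was Pnn with -0.79 ± 0.17 (adjusted p = 0.0171). Pag1 and Fkbpl, with 0.90 ± 0.30 and -0.65 ± 0.37, and the 5 lower genes with the smallest p in CONTROL did not pass the threshold in LOF, which does not show that they were equal.

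Of the genes called in LOF with the same sign and an unadjusted p under 0.05 in CONTROL, 5 more are named, chosen after their values were seen. Npm3, a nucleolar histone chaperone, had log2 differences of 1.72 ± 0.36 in LOF (edgeR adjusted p = 0.0107) and 2.06 ± 0.52 in CONTROL. Snrpd3, a core spliceosome protein, had 0.94 ± 0.22 (adjusted p = 0.0216) and 1.13 ± 0.28, and Emsy, a BRCA2-binding chromatin protein, 1.01 ± 0.24 (adjusted p = 0.029) and 1.23 ± 0.32. Raly, an RNA-binding protein whose annotated span overlaps that of the agouti gene a on the same strand, had 2.07 ± 0.26 (adjusted p = 3.87e-05) in LOF but 0.90 ± 0.39 in CONTROL, where embryo 3 held the highest level of all 13, and 1.51 ± 0.30 without embryos 2 and 3. Supt3, a subunit of the SAGA coactivator, was lower in both, with -2.60 ± 0.45 (adjusted p = 0.00219) and -2.16 ± 0.59.

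The lists were read in LOF too, where 0.65% of all features were higher and 0.823% lower past the threshold. Of 82 oocyte transcripts tested in LOF, 9 were higher and 0 lower past the threshold, with a median of 0.42. Of the 8 genes of the subcortical maternal complex, 5 had a log2 difference above 0, with a median of 0.41 and a lower quartile of -0.28. Past the threshold 2 of the 8 were higher and 0 lower, namely Zbed3 (1.80 ± 0.25, edgeR adjusted p = 0.00012) and Nlrp4f (1.11 ± 0.28, adjusted p = 0.0348). Of the 83 ribosomal protein genes, 30 were lower and 0 higher, with a median of -0.69. Of 69 2-cell genes, 0 were higher and 1 lower, with a median of 0.12. Of 5448 genes lower in TBP LOF, 17 were higher and 142 lower, whereas of 11868 that were not called there 109 were higher and 17 lower. Of 220 genes higher in TBP LOF, 3 were higher and 1 lower in batch 2. Medians of the genes lower, not called and higher in TBP LOF were -0.19, 0.13 and 0.29.

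The test of whether the batch difference itself differed between CONTROL and LOF called 0 of 19517 features (0%; interaction term, edgeR), with 1553 at an unadjusted p under 0.05, and DESeq2 also called 0, with 1545, as did ERCC size factors, with 1045. Without embryos 2 and 3 it called 0, with 993. The smallest p were those of Gm14812, Zfp763 and Nrd1. Gm14812 had 16 reads in CONTROL batch 1 and 0 in batch 2. With the 16 reads taken as exact, over a floor of 3 reads, it was at least 3.95-fold lower in batch 2. Zfp763 and Nrd1 had log2 differences above 0 in CONTROL (2.54 ± 1.15 and 0.91 ± 0.38), with values of -3.14 ± 0.79 and -0.94 ± 0.30 in LOF. Without batch 2 embryo 6 the CONTROL value of Zfp763 was 1.38. The edgeR adjusted p of Zfp763 and Nrd1 for the interaction was 0.55.

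**Figure D5:**
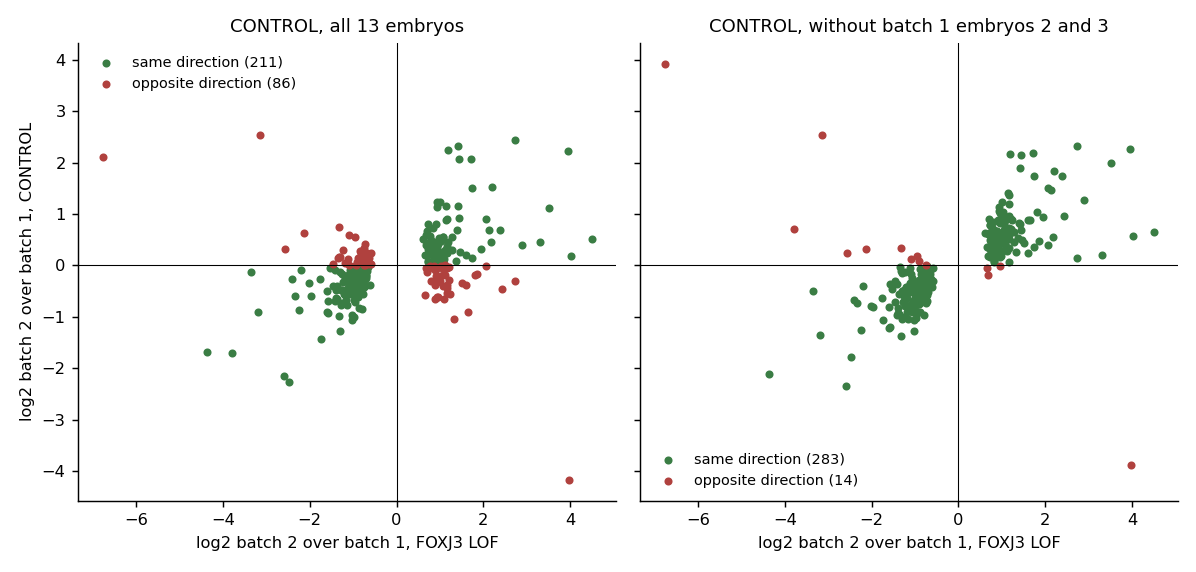
Log2 batch differences of the 297 features called in FOXJ3 LOF embryos (horizontal) against the same features in CONTROL embryos (vertical), with 1 point for each feature. With all 13 CONTROL embryos (left), 211 share the sign and 86 do not, and without batch 1 embryos 2 and 3 (right), 283 do and 14 do not. As the features were selected on the horizontal axis, only the vertical spread is independent of the choice.

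Control embryos of the same stage injected with mouse IgG for the TBP experiment (9 passed quality control) are set beside both batches without a test, as IgG species and processing differ together. Of 19110 features with a value in all 3 sets of embryos, 47.9% were nearer to batch 2 and the rest nearer to batch 1. For 929 features with an unadjusted p under 0.05 between the batches, 552 were nearer to batch 1 and 377 to batch 2. Rpia, with a median of 10.3 CPM in the mouse IgG embryos, and Khdc1a, with 65.5 CPM, were nearer to batch 1, and Pag1, with 18.9 CPM, to batch 2. SINE B2 was wider within the mouse IgG embryos than within either batch, at 22198 to 232790 CPM.

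What the separating genes shared beyond their direction was measured too. The 772 genes lower in batch 2 at an unadjusted p under 0.05 had a median level of 2.04 CPM and a median exonic length of 2507 bases, against 5.14 CPM and 3350 bases over all genes tested, and 64.8% of them coded for protein, against 75%. The 317 higher genes had 8.45 CPM and 3917 bases. In LOF the 130 higher genes had a median length of 4812 bases and a GC content of 44.9%, and the 160 lower genes 2000 bases and 51.9%, against 49.2% over all genes tested. The genes lower in batch 2 of the LOF embryos were thus the shorter and GC-richer ones by their medians. The 130 higher and 160 lower genes had median levels of 42.5 and 77.3 CPM, against 5.14 CPM over all genes tested. The part of length, GC content and level in the lists above was not tested.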

How the data were processed

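Expression was measured in single late 2-cell embryos with Smart-seq+5′. The authors sorted reads of transcript 5′ ends, mapped them with STAR 2.7.11a to GRCm38 and counted with TEcount. The deposited values are estimated counts (expected counts) per gene (gencode M20), ERCC transcript and TE family, without normalization. All were whole numbers, so rounding changed nothing. The settings for reads with several matches and for strand were not given in the sources used here. Symbols and positions came from gencode M21, which gave them for 54723 of 54838 genes. Subfamily rows (42) were added to their 6 families, which left 1343 TE families.

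All 13 CONTROL embryos passed the study's quality control (at least 500000 reads and 1000 genes, at most 10% mitochondrial and 15% ERCC reads). Of the 17 LOF embryos, 1 did not and was left out. A feature was tested where 25% or more of the embryos compared had a read of it, with edgeR 4.0.16 in R 4.3.3 (two-sided quasi-likelihood test, TMM, Benjamini-Hochberg over genes and TE families together, threshold 0.05), in place of the study's DESeq2, which was run as an alternative in version 1.42.0. SEs were derived from the F statistic. TBP classes used size factors from 42 ERCC transcripts. Quality measures were compared by exact permutation tests in scipy 1.17.1 (Python 3.11.15). The fits were tested on simulated data.

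The text names the 5 genes and the 5 TE families of smallest p on either side, up to 3 members of each list on either side, genes and TE families of interest to the study, and the 3 features of smallest interaction p. Cdk11b and Fkbpl were named after their values were seen, as were others where this is said. The comparison and the lists were chosen with earlier results of these data known. Reads carry no molecular identifiers and are not independent molecules, so counting intervals and floors cover counting error only. Nothing in the labels says which embryos of a batch came from separate litters or experiments, so p-values measure the spread between these embryos.

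Alternatives were ERCC and RLE scaling, DESeq2, other filters, equal depth, 1 fit of all 29 FOXJ3-experiment embryos, the embryo number as a block, each embryo left out in turn, and batch 1 embryos 2 and 3 left out together, which was added after seeing the data.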

Additional observations from a re-analysis of the deposited data

Results flagged for a closer look

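In 242 groups of 6 or 7 embryos, each the values of 1 measure in 1 batch, the highest or lowest embryo lay far from the nearest of the others (Dixon's criterion at 95%) in 28. The criterion assumes normally distributed values, whereas some of these groups rest on few reads. Some groups also share members, and some features were named for their small p in these same embryos. The 28 can therefore not be set against a rate expected by chance. Batch 1 embryo 3 was the embryo in 9 of the 28, batch 2 embryo 1 in 4, batch 1 embryo 2 and batch 2 embryos 2 and 7 in 3 each, and 4 other embryos in 1 or 2 each.

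Batch 1 embryo 3 was the highest of its batch in the summed level of the subcortical maternal complex (7952 CPM), of maternal mRNA decay genes (3798 CPM), of LINE-1 families other than L1Md (7242 CPM), of L1Md families (1357 CPM) and of TE families outside the named groups (3558 CPM). It was also highest for Zbed3 (7182 CPM), Nlrp4f (415 CPM), Zscan4d (131 CPM) and Zscan4-ps2 (67.7 CPM). Zbed3 and Nlrp4f are members of the summed complex, so these flags are not separate. Batch 1 embryo 2 was highest for Bex2 (61.7 CPM), Krt18 (32.9 CPM) and ERVB2_1-I_MM-int (12.4 CPM). In the other batch 1 embryos, embryo 6 was highest for ZP3AR (124 CPM) and L1MdTf_II (184 CPM), and embryo 5 held the only read of Vmn2r1 (0.333 CPM).

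In batch 2, embryo 1 was highest for Nefl and Nefm (3.00 CPM each) and had no read of the Y-linked genes (0 CPM) or of Supt3 (0 CPM). Embryo 2 had the highest share of mitochondrial reads (6.39%) and the highest levels of Ddit4l (115 CPM), a 2-cell gene, and of TE families outside the named groups (3082 CPM). Embryo 3 had the lowest summed level of ERVK families other than IAP (5065 CPM). Embryo 6 was highest for X7B_LINE (2.95 CPM) and Zfp763 (6.75 CPM), and embryo 7 for Xist (12.6 CPM), MTA_Mm-int (7957 CPM) and the MT2A, MT2B and MT2C families (46286 CPM).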

How the results depend on the processing

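With all 13 CONTROL embryos the number of features past the threshold (0) was also 0 with RLE factors and with edgeR's own expression filter. It was 16 with DESeq2 (6 higher, 10 lower), 20 with ERCC size factors (1 and 19), 33 without a filter (5 and 28), 1 at equal depth and 5 in 1 fit with the LOF embryos. Leaving out each embryo in turn gave 0 to 3, with 2 without batch 1 embryo 3 and 3 without batch 1 embryo 6. The 1147 features with an unadjusted p under 0.05 became 2901 without a filter and 500 with edgeR's filter. Without batch 1 embryos 2 and 3, a choice made after seeing the data, 5 passed, 29 with DESeq2 and 5 with ERCC size factors. In LOF embryos the 297 became 909 with DESeq2 and 46 with ERCC size factors, and 116 to 468 with each embryo left out (116 without batch 2 embryo 2, 468 without batch 1 embryo 9). The cause of these changes was not tested.

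The median of oocyte transcripts (-0.17) was -0.29 to 0.16 with each embryo left out, and 0.34, or 0.37 with DESeq2 and 0.34 with ERCC size factors, without embryos 2 and 3. The 2-cell median (-0.22) was then 0.043 with DESeq2 and 0.057 with ERCC size factors. The summed subcortical maternal complex, mostly Zbed3, then differed by 0.94 on the log2 scale. With each embryo left out, the difference in log2 counted reads was -0.42 to -0.16, in detected genes -1499 to -708 and in ERCC percent -0.32 to 0.65, where the negative value was that without batch 2 embryo 1.

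Of 72 named features in 24 settings, 19 of 1713 values changed sign, in 5 features. Without embryos 2 and 3, by edgeR, DESeq2 and ERCC size factors in turn, the log2 differences were 1.03, 1.07 and 0.85 for Zbed3, 0.91, 0.94 and 0.97 for Nlrp4f, 0.069, 0.10 and 0.085 for Zfp352, and 0.41, 0.44 and 0.34 for MTB_Mm. With each embryo left out they were -0.42 to 0.54 for Zbed3, -0.35 to 0.68 for Nlrp4f, -0.39 to 0.11 for Letm1 and -0.41 to 0.061 for MTB_Mm. At equal depth Letm1 had 0.010.

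Embryos with the same number in both batches did not deviate together, with correlations of -0.155 to 0.0945 over 6 pairs, and shared only a number. With the embryo number as a replicate block, 15 features passed in CONTROL (3 higher, 12 lower), 698 had an unadjusted p under 0.05, Zbed3 had 0.35 and Nlrp4f 0.38, and 253 features passed in LOF.

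Depth limits the features with few reads: 4421 of the 19593 tested features had a mean under 1 CPM.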
